A study of Homo sapiens with 16 samples.

Results

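Human embryonic stem cells of the established line H9 were compared at day 5 of activin A treatment, when they are described as endoderm, with cells at day 1 of the same treatment, a stage resembling the primitive streak. The samples were taken by their label for time: 4 biological samples at day 5 and 3 at day 1, which is 7 of the 14 biological samples of the series and 8 of its 16 arrays. Day 5 replicate 4 had been hybridised to a pair of technical arrays, which were averaged. Both groups grew in RPMI-1640 with glutamax, antibiotics and 100 ng/ml recombinant activin A, and the fetal bovine serum was stepped up from 0 through 0.2 to 2% during the culture. Time under activin and serum concentration therefore cannot be told apart in this comparison. RNA was read on Affymetrix Human Exon 1.0 ST arrays, whose values are given here as log2(intensity + 1). Undifferentiated day 0 cells (4 samples) and day 3 activin cells (3 samples) entered the fit as well and are quoted beside the results where their level helps. The day 0 cells grew on feeders or Matrigel in conditioned medium with 8 ng/ml bFGF and 20% knockout serum replacement, so medium and activin cannot be told apart where a day 0 level is quoted.

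Definitive endoderm is the germ layer that gives rise to the lining of the gut and to liver, pancreas, lung and thyroid. It arises in the embryo from epiblast cells that pass through the primitive streak, and high activin, which signals through the same receptors and SMAD2/SMAD3 proteins as Nodal, drives stem cells along that route in culture. Streak cells are known for TBXT, MIXL1, EOMES, FGF4, FGF8 and WNT3. Endoderm leaving the streak is known for SOX17, FOXA2, GATA4, GATA6, HHEX and CXCR4, a chemokine receptor that is widely used to sort these cells.

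The arrays had been brought to a common level, with medians of 245.1 to 246.3. At day 1 the median correlation of a sample with the others of its group ran from 0.940 to 0.959. At day 5 it was 0.935 to 0.939 in 3 samples and 0.858 in replicate 2. Day 3 replicate 2 stood apart too, at 0.83 against 0.901 and 0.905, and it read near the day 0 mean in genes that were high in its group: SOX17 stood at 5.52 there, against 11.21 and 11.37 in the other day 3 samples and a day 0 mean of 6.28. That sample is in neither group compared here, but where it departs from its group it widens the spread with which a difference is judged. For FGF4 and THBS2 it read like the other day 3 samples. Values without it are given for the genes and lists where it made the most difference. The labels call the samples biological replicates, apart from the technical arrays, but do not say whether they were separate cultures. The p-values thus measure the spread between these samples, and how much of it is technical is not known. In bulk RNA, fewer cells of a type and less RNA per cell cannot be told apart.

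Of 18495 probe sets, 616 (3.33%) passed the test at a Benjamini-Hochberg adjusted p under 0.05 in limma, 370 of them higher at day 5 (2.00%) and 246 lower (1.33%). These covered 304 gene symbols that were higher and 200 that were lower. In 570 of the 616 the change was at least 2-fold. The 7 samples separated without overlap at 2984 probe sets (16.1%), with day 5 above day 1 at 1309 (7.08%) and below it at 1675 (9.06%), and 615 of the 616 calls were among them. The number of calls depended on single samples, above all day 1 replicate 1, without which the count was 170. Without day 1 replicates 2 or 3 it was 323 or 255, and without day 5 replicate 1 it was 339. Leaving out day 3 replicate 2 gave 1130. A core of 152 probe sets, 107 higher and 45 lower, passed with all samples and in each of the 7 fits that left out 1 day 1 or day 5 sample, and "in all 7 fits" is used for that property from here on. The median change over all probe sets was -0.06. Counts of list members past the test are to be read beside the shares of all probe sets, 2.00% higher and 1.33% lower.

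**Figure D1:**
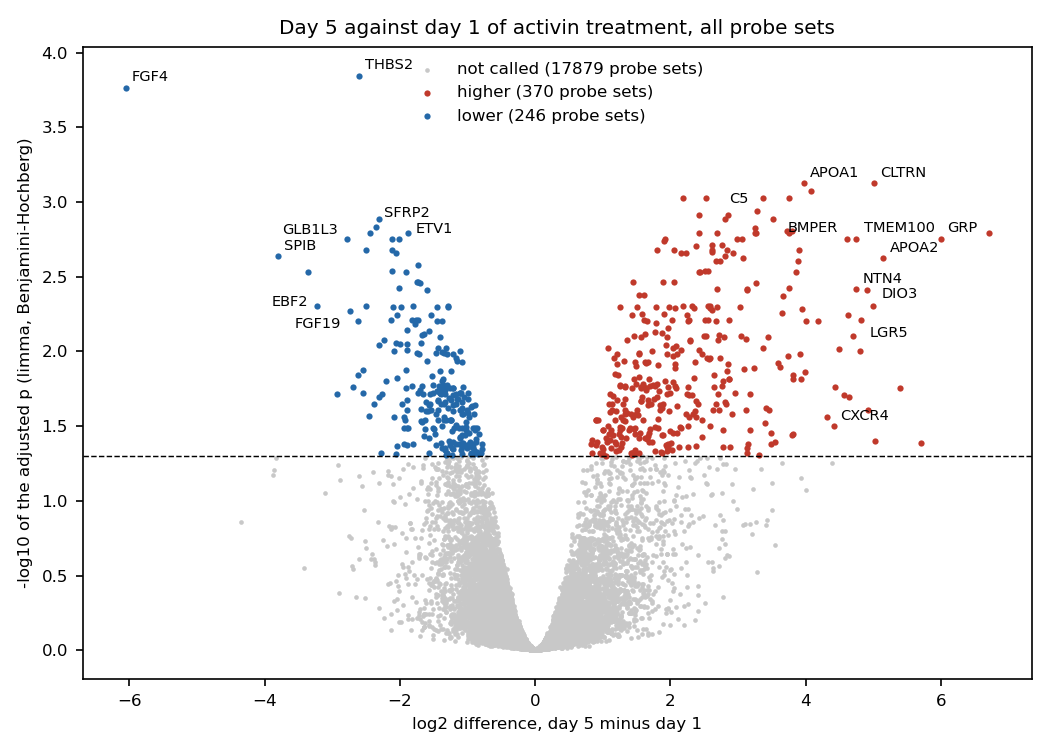
Difference between day 5 and day 1 (horizontal axis, log2) against -log10 of the limma adjusted p (vertical axis) for 18495 probe sets, with 370 higher probe sets in red, 246 lower ones in blue and 17879 that did not pass the test in grey. Among probe sets with a gene symbol FGF4 and GRP lie farthest out on either side, at -6.05 and 6.00.

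FGF4, a ligand of the FGF receptors that is made by stem cells and by the streak, fell further than any other gene with a probe set of its own. It read 9.37, 10.25 and 10.91 at day 1 and 5.38, 4.42, 3.50 and 3.20 at day 5. The highest day 5 sample lay well below the lowest day 1 sample, and the group means were 10.18 ± 0.77 (SD, n = 3) and 4.12 ± 0.98 (SD, n = 4). The difference was -6.05 ± 0.50 (log2, SE; adjusted p = 0.000172), or 66.4-fold, and held in all 7 fits. The day 0 mean was 6.63 and the day 3 samples read 6.22, 6.04 and 5.94, so FGF4 stood above its day 0 level at day 1 and below it at day 5. Because the day 5 values are low, the size depends on the pseudocount: with 16 in place of 1 the difference was -5.12.

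THBS2, which encodes the matrix glycoprotein thrombospondin 2, fell with the smallest spread of the marker genes. It read 8.91, 8.68 and 9.17 at day 1 against 6.17, 6.43, 6.21 and 6.46 at day 5. Both groups were tight and far from each other. The fall of 2.61 on the log2 scale (SE 0.20, adjusted p = 0.000143) was 6.10-fold and held in all 7 fits, and at day 3 the gene already read 6.50, 6.70 and 6.41.

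CXCR4 behaved differently, with a large difference and uneven day 1 samples. It read 8.59, 7.55 and 10.55 at day 1 and 13.01, 13.25, 13.62 and 13.34 at day 5. The day 5 samples were close together and all above the highest day 1 sample, while day 1 replicate 3 stood well above the other day 1 samples and the day 0 mean of 8.12. The difference was 4.41 ± 1.01 (log2, SE; adjusted p = 0.0317), or 21.3-fold, and ran from 3.74 to 5.24 in the 7 fits. The call was lost without any single one of 6 of the 7 samples, with adjusted p from 0.0597 to 0.141, and kept without day 1 replicate 3 (0.0355). Day 3 replicate 2 read 7.58 where the other day 3 samples read 11.83 and 12.43, and without it the adjusted p was 0.00188.

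**Figure D2:**
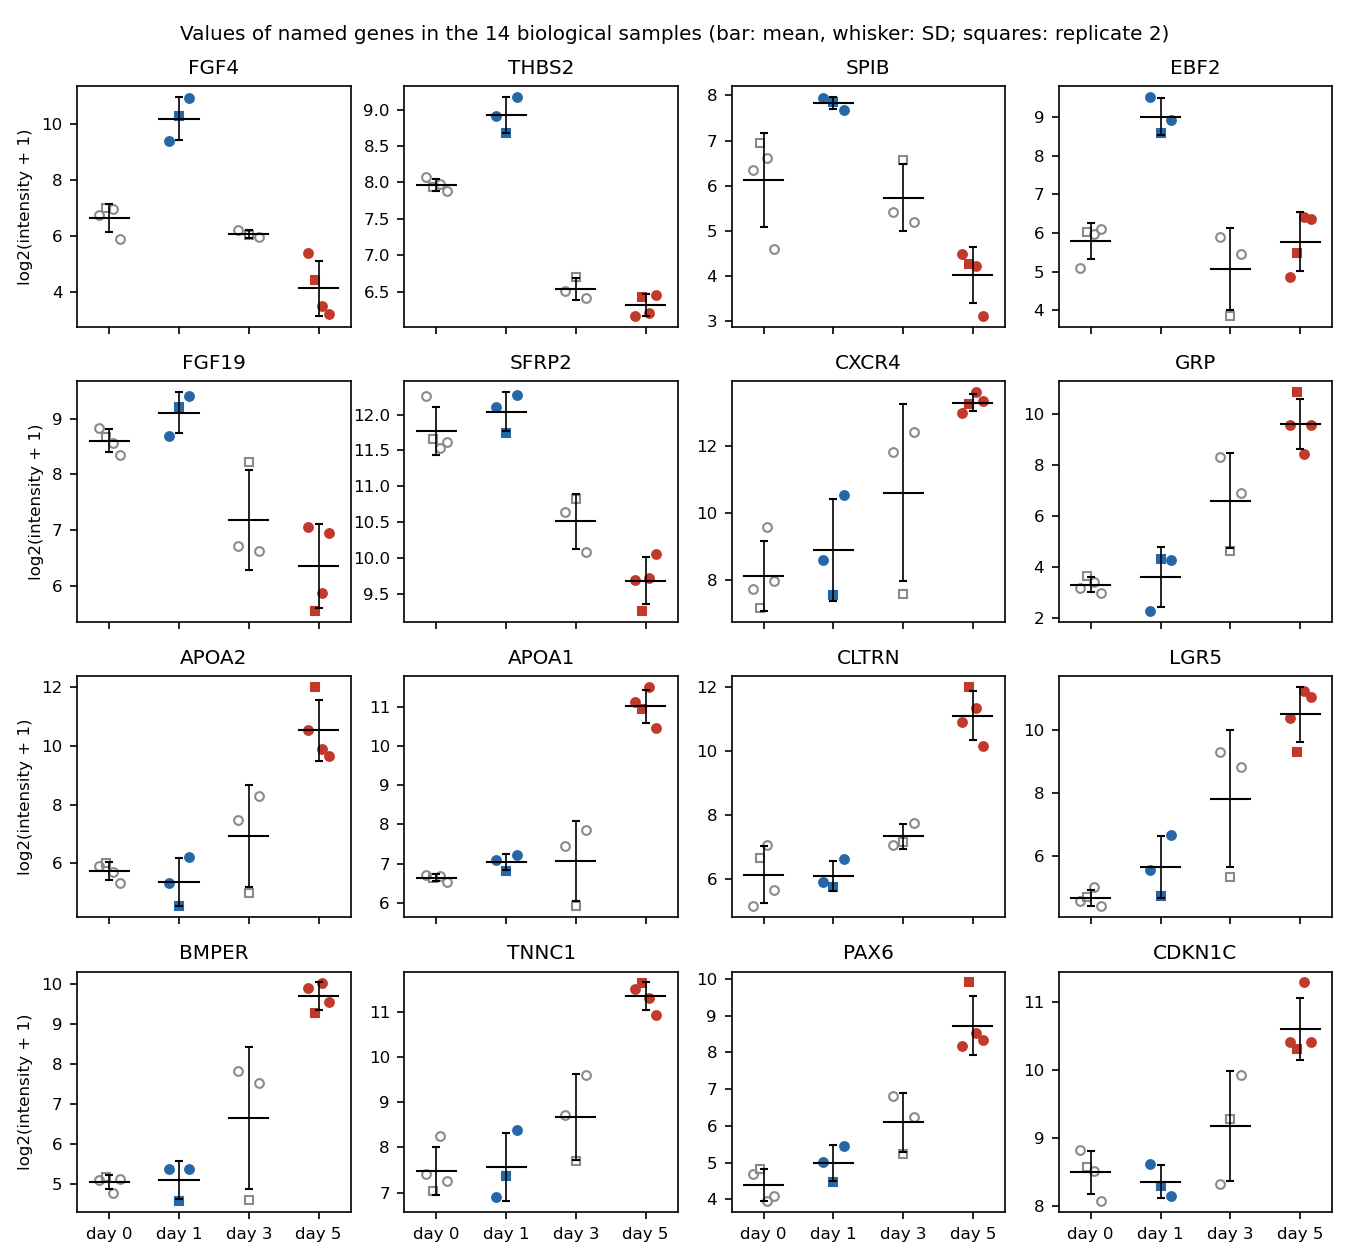
Log2 intensity of 16 genes in each biological sample at days 0, 1, 3 and 5, with bars for group means, whiskers for the SD and squares for replicate 2 of each group. FGF4, THBS2, SPIB, EBF2, FGF19 and SFRP2 are lower at day 5 than at day 1, and the other 10 genes are higher.

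The transcription factors of the streak did not fall as FGF4 did. EOMES and MIXL1, which start the endoderm and mesoderm programmes, read 12.22, 11.51 and 12.89 and 12.07, 11.91 and 13.53 at day 1, against day 0 means of 6.61 and 7.16. At day 5 EOMES read 11.86, 11.20, 12.36 and 12.36 and MIXL1 read 12.29, 11.22, 12.90 and 12.90. The groups overlapped for both genes and neither difference passed the test (-0.26 ± 1.11, adjusted p = 0.963, and -0.17 ± 0.95, adjusted p = 0.971, log2 with SE). These wide errors could leave a loss far above 2-fold uncalled. SOX17, with a similar error, missed the threshold at a difference of 3.93 (log2). GSC, the homeobox gene of the anterior streak, read 10.33, 9.64 and 11.57 at day 1 and 11.07, 10.95, 11.85 and 11.61 at day 5, again overlapping (adjusted p = 0.834).

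TBXT, the brachyury gene of nascent mesoderm, was the streak factor with separate groups. It read 8.25, 8.55 and 9.34 at day 1 and 5.90, 6.08, 7.09 and 7.26 at day 5, so every day 5 sample lay below every day 1 sample. The difference of -2.13 ± 0.58 (log2, SE) missed the threshold (adjusted p = 0.068) with all samples and passed it without day 3 replicate 2 (0.00548). WNT3 and FGF8, signals of the streak, overlapped between the groups and differed by -1.19 ± 0.52 (adjusted p = 0.309) and -0.12 ± 0.50 (adjusted p = 0.963). Of 26 measured genes in a list for the primitive streak, HAS2 rose and FGF4 fell, 24 did not pass, and the median change was -0.05. In 5 members every day 5 sample was above every day 1 sample and in 2 it was below (7.08% and 9.06% of all probe sets). Without day 3 replicate 2 the list had 4 higher members and 2 lower. HAS2, the hyaluronan synthase, was higher by 2.59 ± 0.59 (log2, SE; adjusted p = 0.0317), a call lost without any of 6 samples (up to 0.161) and kept without day 5 replicate 2 (0.0400). The mean of the list in each sample, relative to the day 1 mean, was -0.36, -0.20 and 0.56 at day 1 and 0.23, -0.04, 0.13 and 0.16 at day 5.

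Genes of definitive endoderm were higher at day 5. Of 30 measured members of the definitive endoderm list 28 were above 0, 23 had every day 5 sample above every day 1 sample (7.08% of all probe sets did), 7 passed the test as higher and none as lower, and the median change was 1.92. This list and the others here were chosen with earlier results of these data known. A share above that of all probe sets therefore describes the list and is no test. The 7 that passed were GATA4, CXCR4, PRDM1, LGR5, NTN4, CYP26A1 and APOA2. The count ran from 3 to 7 when 1 sample was left out, with the lowest count after removal of day 1 replicate 1 or 2, or of day 5 replicate 1, 3 or 4. It was 17 without day 3 replicate 2. The list mean relative to the day 1 mean was 1.99, 2.00, 2.48 and 2.46 in the day 5 samples and -0.26, -0.50 and 0.76 in the day 1 samples, so day 1 replicate 3 was nearest to day 5.

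Among the endoderm transcription factors, GATA4, a zinc finger factor of endoderm and heart, read 5.89, 4.99 and 7.38 at day 1 and between 9.51 and 11.11 in the day 5 samples. It rose by 4.32 ± 0.96 (log2, SE; adjusted p = 0.0274), a call kept without day 1 replicate 3 or day 5 replicate 2 and lost without any other sample (up to 0.125). PRDM1, a repressor active in several early lineages, read 5.87, 6.07 and 7.17 against 10.28, 9.36, 10.61 and 10.42. It rose by 3.80 ± 0.90 (adjusted p = 0.0365), kept only without day 5 replicate 2 (0.0464) among the 7 fits and reaching 0.172 in the others. For both genes the groups were far apart.

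SOX17, the SRY-box factor on which the endoderm programme depends, read 6.58, 7.12 and 8.00 at day 1 and 11.17, 10.25, 11.74 and 11.49 at day 5. The gap between the groups was over 2 log2 units, but the difference of 3.93 ± 1.08 missed the threshold (adjusted p = 0.0699). Without day 3 replicate 2 its adjusted p was 0.000195. FOXA2 (1.78 ± 0.54, adjusted p = 0.108), GATA6 (3.20 ± 1.11, 0.166), HHEX (2.06 ± 0.62, 0.0999) and LHX1 (2.54 ± 0.71, 0.0775), all regulators of early endoderm, also had every day 5 sample above every day 1 sample and did not pass. Without day 3 replicate 2 they gave 0.0321, 0.0177, 0.0152 and 0.0182. CER1, a secreted inhibitor of Nodal, BMP and WNT that marks anterior endoderm, was already at 12.96, 12.77 and 14.26 at day 1 and read 14.66, 14.57, 14.56 and 14.47 at day 5 (1.23 ± 0.67, adjusted p = 0.452). Of 18 later gut and liver factors measured, TBX3 alone passed, as higher, with a list median of 0.04, and the hindgut factor CDX2 overlapped between the groups (0.31 ± 0.38, adjusted p = 0.819). TBX3 was higher by 2.64 ± 0.53 (adjusted p = 0.0172), lost without any day 1 sample (up to 0.0733). It was also the sole call among 18 measured early mesoderm genes, whose median change was 0.10.

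The FGF ligands divided by member. Of 17 measured, FGF4 and FGF19 fell and none rose (1.33% and 2.00% of all probe sets), around a median change of 0.06. FGF19, an endocrine FGF of gut endoderm that stem cells also make, read 8.69, 9.21 and 9.41 at day 1 and 7.05, 5.55, 5.88 and 6.96 at day 5, against a day 0 mean of 8.61. All day 5 samples were lower, with a difference of -2.74 ± 0.44 (adjusted p = 0.00537) that held in all 7 fits. FGF17 pointed upwards without passing: it read 8.71, 8.17 and 11.71 at day 1 and 12.24 to 13.12 in the day 5 samples (3.27 ± 1.42, adjusted p = 0.301, or 0.0262 with day 3 replicate 2 left out). Day 1 replicate 3 lay closer to the day 5 samples than to the other day 1 samples.

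Genes that read or restrain FGF signalling changed in both directions. ETV1, an ETS factor induced by FGF and ERK signalling, read 10.35, 10.28 and 9.91 at day 1 and 8.62, 8.27, 8.18 and 8.12 at day 5 (-1.88 ± 0.24, adjusted p = 0.00161, in all 7 fits). SPRY1, a feedback inhibitor of the same pathway, fell as well (-1.46 ± 0.27, adjusted p = 0.0102, or 0.0738 with day 1 replicate 1 left out). DUSP4, a phosphatase that switches ERK off, rose by 1.95 ± 0.36 (adjusted p = 0.0103, or 0.0518 with day 1 replicate 2 left out). The fourth call among the 22 measured members was FLRT3, a membrane protein that binds FGF receptors, which was higher by 3.31 ± 0.84 at an adjusted p of 0.0496 and lost its call without any of the 7 samples (0.0638 to 0.207). The list median was -0.06.

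A few WNT signalling genes passed the test, among them a pair of secreted inhibitors that moved in opposite directions. SFRP2, a secreted frizzled-related inhibitor abundant in stem cells, read 12.11, 11.74 and 12.27 at day 1 and 9.70, 9.27, 9.72 and 10.06 at day 5. All day 5 samples were lower (-2.35 ± 0.28, adjusted p = 0.00147, in all 7 fits). FRZB, a relative of SFRP2, moved in the opposite direction, from 7.24, 6.67 and 7.84 to 10.70, 10.43, 11.04 and 10.33. It rose by 3.37 ± 0.61 (adjusted p = 0.00954, or 0.0528 with day 1 replicate 1 left out). These were the calls among 18 measured inhibitors, whose median change was 0.37. DKK1 and DKK4, inhibitors that bind the co-receptor LRP6, did not pass (1.74 ± 0.90 and -2.02 ± 0.97, adjusted p = 0.422 and 0.369), and DKK4 was uneven at day 5, from 5.67 to 10.63.

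LGR5, a receptor for R-spondins and itself a WNT target, read 5.56, 4.75 and 6.69 at day 1 and 10.38, 9.32, 11.22 and 11.03 at day 5. The groups were over 2 log2 units apart, and the gene rose by 4.82 ± 0.80 (adjusted p = 0.00616, in all 7 fits), or 28.2-fold. Of 37 WNT ligands and receptors measured, WLS, FZD4 and RSPO3 were higher and none lower (2.00% and 1.33% of all probe sets). Their median change was 0.17. WLS carries WNT proteins to the cell surface and rose by 2.78 ± 0.55 (adjusted p = 0.0159), FZD4 is a receptor and rose by 2.46 ± 0.56 (0.0289), and RSPO3 is an R-spondin and rose by 1.46 ± 0.34 (0.0329). None of these 3 calls survived the removal of a day 1 sample, with adjusted p up to 0.093 for WLS, 0.116 for FZD4 and 0.178 for RSPO3. Among 23 WNT targets, LGR5 and TNFRSF19, a receptor of the TNF family, were higher and the median was -0.03. TNFRSF19 rose by 2.08 ± 0.42 (adjusted p = 0.0176), lost after removal of day 1 replicate 1 or 2, or of day 5 replicate 1 (up to 0.101). DACT1, an intracellular regulator of WNT signalling, fell by 2.54 on the log2 scale (SE 0.52, adjusted p = 0.019), lost without day 1 replicates 1 or 3 (up to 0.0968).

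In the Nodal and activin pathway the ligand and its feedback genes gave no call. NODAL read 11.43, 11.89 and 12.11 at day 1 and 11.79, 11.92, 11.54 and 11.53 at day 5, so the groups overlapped (-0.11 ± 0.27, adjusted p = 0.933). SMAD2, which carries the activin signal to the nucleus, read 11.17, 11.05 and 11.12 against 11.92, 11.94, 12.14 and 12.04, a small rise of 0.89 ± 0.20 (adjusted p = 0.0289). DACT2, reported to promote the turnover of Nodal receptors, rose by 2.36 ± 0.52 (adjusted p = 0.0251). Both calls were lost on removal of any day 1 sample, or of day 5 replicate 3 or 4 (up to 0.118 and 0.127), and SMAD2 also without day 5 replicate 1. FST, the activin-binding protein follistatin, was higher in every day 5 sample (1.51 ± 0.43, adjusted p = 0.0859) and passed without day 5 replicate 2 (0.0348) or day 3 replicate 2 (0.0337). The list's 33 measured genes had a median change of 0.29, with 2 higher and none lower (2.00% and 1.33% of all probe sets).

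Among 30 measured BMP genes, BMPER and BMP2 were higher and none was lower (2.00% and 1.33% of all probe sets). The list median was 0.40. BMPER, a secreted protein that binds BMPs, read 5.38, 4.56 and 5.36 at day 1 and 9.92, 9.28, 10.05 and 9.57 at day 5. Its groups were tight and over 3 log2 units apart, and it rose by 4.61 ± 0.60 (adjusted p = 0.00176, in all 7 fits), or 24.3-fold. The ligand BMP2 rose by 3.55 ± 0.86 (adjusted p = 0.0401), a call kept only without day 5 replicate 2 (0.0389) and reaching 0.166 in the other 6 fits.

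The CXCR4 axis changed at the receptors and at a pair of chemokines. ACKR3, a scavenging receptor that shares the ligand CXCL12 with CXCR4, read 6.97, 6.16 and 8.28 at day 1 and 11.29, 11.69, 11.66 and 11.89 at day 5. It rose by 4.50 ± 0.81 (adjusted p = 0.00957), and missed the threshold without day 1 replicate 1 (0.0543). CXCL12 itself read 9.13, 9.06 and 9.29 at day 1 and 7.99, 8.19, 8.15 and 8.17 at day 5. Every day 5 sample was lower, but the difference of -1.04 ± 0.38 did not pass (adjusted p = 0.198), and it did without day 3 replicate 2 (0.0115), which read 9.85 against 8.17 and 7.90. The chemokines CCL2 (3.93 ± 0.77, adjusted p = 0.0154) and CXCL14 (2.78 ± 0.65, 0.0336) were higher. CCL2 lost its call without day 1 replicates 1 or 3 (up to 0.0829), and CXCL14 without any of 5 samples (up to 0.179). CD74, the invariant chain of class II antigen presentation and a receptor for the cytokine MIF, read 7.99, 8.56 and 7.84 against 5.71, 6.48, 5.58 and 6.26 and fell in all 7 fits (-2.12 ± 0.30, adjusted p = 0.00291). In this list of 13 measured genes 4 were higher and 1 was lower around a median of 0.86, and the count of higher members was 0 without day 1 replicate 1 and 2 or 3 without any other sample.

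Apolipoproteins and a complement protein rose, while the wider set of liver and yolk sac secreted proteins did not. APOA1, the main protein of high-density lipoprotein, read 7.09, 6.82 and 7.23 at day 1 and 11.13, 10.94, 11.50 and 10.47 at day 5, and stood at 7.44, 5.91 and 7.85 at day 3. Only the day 5 samples were high, by 3.97 ± 0.39 (log2, SE; adjusted p = 0.000747), or 15.6-fold. APOA2, its partner in the same particle, read 5.34, 4.56 and 6.21 against 10.52, 11.98, 9.90 and 9.66 (5.15 ± 0.72, adjusted p = 0.00237), or 35.5-fold. The complement protein C5 rose by 3.27 ± 0.36 (adjusted p = 0.00115). All 3 calls held in all 7 fits. Of the 26 measured genes 3 were higher and 1 was lower, the median change was 0.28, and 23 stayed under the array median at both days. ALB, AFP and TTR, the secreted proteins that define liver and yolk sac cells, did not pass the test. The lower member was RBP4, the blood carrier of retinol, at -1.91 ± 0.37 (adjusted p = 0.0132, lost without day 1 replicates 1 or 2, up to 0.0936).

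The bases just upstream of APOA2, GRP and SPIB are shown because these genes were among the furthest moved in either direction and had an entry in the RefSeq promoter table (GRCh38.p14), which the arrays did not measure. GRP and SPIB are described further on. Each run is the 250 bases before the annotated start, 5′ to 3′ on the gene's own strand, and capitals mark motif letters.
APOA2: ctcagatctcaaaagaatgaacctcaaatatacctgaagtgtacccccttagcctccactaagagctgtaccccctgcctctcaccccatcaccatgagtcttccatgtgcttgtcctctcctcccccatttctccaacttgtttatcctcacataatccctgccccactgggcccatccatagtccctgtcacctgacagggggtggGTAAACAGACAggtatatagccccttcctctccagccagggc
GRP: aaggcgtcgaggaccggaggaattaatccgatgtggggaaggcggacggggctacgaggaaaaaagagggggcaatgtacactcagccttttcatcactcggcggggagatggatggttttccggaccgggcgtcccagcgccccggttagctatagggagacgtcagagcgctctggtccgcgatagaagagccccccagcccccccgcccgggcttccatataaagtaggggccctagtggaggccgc
SPIB: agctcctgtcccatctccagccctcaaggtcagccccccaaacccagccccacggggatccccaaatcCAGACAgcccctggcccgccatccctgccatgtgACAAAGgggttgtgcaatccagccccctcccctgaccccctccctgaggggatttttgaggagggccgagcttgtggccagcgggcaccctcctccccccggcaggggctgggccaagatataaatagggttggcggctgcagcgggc
These are chr1:161223629-161223878 on the minus strand, chr18:59219908-59220157 on the plus strand and chr19:50418688-50418937 on the plus strand. Exact matches were searched on both strands for the motifs of 6 factor families known in streak and endoderm. These were CAGACA for SMAD proteins, found in 13.6% of 27305 promoters of the same length, and AATCCACA for FOXH1, found in 0.681%. The GATA motif AGATAA was in 9.37%, and the motif shared by SOX and TCF factors, ACAAAG, in 13.7%. The forkhead motif TGTTTAC was in 2.98% and the T-box motif TCACACC in 2.72%. With positions counted backwards from the start, APOA2 held GTAAACA, the reverse complement of the forkhead motif, from -42 and an overlapping CAGACA from -37. SPIB held CAGACA from -182 and ACAAAG from -148, and GRP held none of the 6. COLEC12, a large rise described further on, had an entry without a match as well and is not printed. Single matches to the SMAD, SOX and GATA letters are thus common. A match describes letters only and is not a measured binding site. FGF4 and EBF2 are named without a sequence.

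Retinoic acid genes shifted in their receptors, binding proteins and degrading enzyme. RXRG, a nuclear receptor that pairs with the retinoic acid receptors, read 5.16, 5.52 and 6.40 at day 1 and 9.31, 9.60, 9.45 and 9.03 at day 5, a rise of 3.65 ± 0.59 (adjusted p = 0.00556, in all 7 fits). RARB, a receptor and a target of retinoic acid, rose by 2.76 ± 0.55 (adjusted p = 0.0171), most of all in day 5 replicate 2 (9.38 against 6.69, 7.40 and 7.73). CRABP2, which delivers retinoic acid to the nucleus, rose by 2.58 ± 0.48 (0.0111). CYP26A1, the enzyme that degrades retinoic acid, rose by 2.72 ± 0.59 (0.0246). RARB lost its call without any day 1 sample (up to 0.0794), CRABP2 without day 1 replicates 1 or 3 (up to 0.0728) and CYP26A1 without 5 of the 7 samples (up to 0.11). The list of 22 measured genes had 4 higher and 1 lower (RBP4), where 2.00% and 1.33% of all probe sets passed. Its median was -0.13, and the higher count was 1 without day 1 replicate 1 and 2 without day 1 replicates 2 or 3.

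The extracellular matrix gave few calls beside THBS2. Of 8 thrombospondin family members measured, THBS2 and THBS4 fell, none rose, and the median was -0.10. THBS4, found in tendon and muscle matrix, fell by 1.44 on the log2 scale (SE 0.30, adjusted p = 0.0212), lost without any day 1 sample or day 5 replicate 1 (up to 0.115). Of 30 collagens, COL21A1 and COL9A2 were higher and COL14A1 was lower (2.00% and 1.33% of all probe sets), with a median of 0.90. COL21A1 read 5.26, 5.04 and 4.43 against 7.63, 6.92, 8.79 and 7.52 and held in all 7 fits (2.80 ± 0.39, adjusted p = 0.00231). COL9A2 (1.47 ± 0.35, 0.0359) and COL14A1 (-1.48 ± 0.35, 0.0358) were lost in 6 and 5 of the 7 fits. The collagen list mean was uneven at day 5: relative to day 1 it was 0.86, 1.41 and 1.65 in replicates 1, 3 and 4 and -0.20 in replicate 2, without which the median was 1.56.

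Other matrix genes were led by small proteoglycans and hyaluronan partners. LUM, the collagen-binding proteoglycan lumican, read 4.40, 4.21 and 5.64 at day 1 and 8.66, 10.81, 7.14 and 8.37 at day 5 (3.99 ± 0.77, adjusted p = 0.0136, lost without day 1 replicates 1 or 2, up to 0.0794). HAPLN1, which links hyaluronan to proteoglycans, read 6.18, 6.84 and 5.42 against 10.42, 12.27, 7.08 and 10.05. Its day 5 samples spanned over 5 log2 units, and its rise of 3.81 ± 0.90 (adjusted p = 0.0356) kept its call only without day 5 replicate 3 (0.00391) among the 7 fits. MATN3, a cartilage matrix protein, read 7.92, 8.59 and 7.78 against 10.38, 10.45, 10.41 and 10.04 and held in all 7 fits (2.23 ± 0.31, adjusted p = 0.00221). With HAS2 these made 4 higher members of 30 measured, none lower and a median of 0.51, with counts of 1 to 4 when 1 sample was left out and 1 without day 1 replicates 1 or 2. None of 17 integrins passed the test with all samples (3.33% of all probe sets did), and 2 did without day 3 replicate 2. ITGB3 and ITGA5 had the largest differences there, at 1.67 ± 0.52 and 1.52 ± 0.84 (adjusted p = 0.116 and 0.468). ITGB3 had every day 5 sample above every day 1 sample and passed without day 3 replicate 2 (0.0474).

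Epithelial and mesenchymal genes gave few calls. Of 21 measured cadherin and transition factors TWIST1 was higher (2.81 ± 0.60, adjusted p = 0.0218), and GRHL2, which maintains epithelia, and TCF4 were lower (-1.67 ± 0.38, 0.0294, and -1.26 ± 0.28, 0.0286). Of 20 claudin and tight junction genes MARVELD3 was lower (-1.45 ± 0.30, 0.0183). Each of these 4 calls was lost in at least 4 of the 7 fits.

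Genes of contractile muscle rose beside those of endoderm. Of 15 measured cardiac and muscle markers MYL3, MYL4, MYL7, TNNC1, CNN1 and MYOCD rose and none fell (2.00% and 1.33% of all probe sets). The median change was 1.13. MYL7, the regulatory light chain of atrial muscle, read 6.81, 7.17 and 8.17 at day 1 and 11.33, 11.29, 11.07 and 11.26 at day 5 (3.85 ± 0.56, adjusted p = 0.00296). TNNC1, the troponin C of slow and cardiac muscle, read 6.91, 7.38 and 8.39 against 11.52, 11.64, 11.31 and 10.94 (3.79 ± 0.46, adjusted p = 0.00155). Both held in all 7 fits, with all day 5 samples over 2 log2 units above day 1. MYL4, an embryonic light chain, read 6.74, 6.30 and 8.95 against 11.80, 11.44, 12.41 and 12.23 (4.64 ± 0.97, 0.0202, lost without 4 samples, up to 0.113). MYOCD, the coactivator of smooth and cardiac muscle genes, rose by 3.46 ± 0.76 (0.0246), CNN1, a smooth muscle calponin, by 1.33 ± 0.28 (0.0208) and MYL3 by 2.15 ± 0.49 (0.0320), each lost in 4 or more of the 7 fits.

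Regulators of heart genes gave mixed results. MYOCD in this list and GATA4 outside it passed as higher. NKX2-5 overlapped between the groups (0.78 ± 0.56, adjusted p = 0.624), with an error that could leave a change well above 2-fold uncalled. The regulator TBX5 and the light chain MYL2 were also among the 9 members that did not pass. The summed intensity of the 15 markers was 2944 to 4115 at day 1 and 12481 to 21005 at day 5. The count of higher members was 6 with all samples and 2 to 5 in the 7 fits, lowest without day 1 replicate 1 or day 5 replicate 1. NPPB, the natriuretic peptide made by heart and other cells, was outside the list and read 7.33, 5.27 and 9.51 at day 1 and 11.98, 11.77, 12.96 and 12.88 at day 5 (5.03 ± 1.21, adjusted p = 0.0396, kept only without day 1 replicate 3 at 0.0361).

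Markers of other cell types were checked beside the endoderm genes. Among 16 markers of extraembryonic endoderm, which shares much of its programme with definitive endoderm, GATA4, APOA1 and CUBN were higher and the median was 0.66. In all, 15 of the 16 were above 0. Every day 5 sample was above every day 1 sample in 5 members and below in 0 (7.08% and 9.06% of all probe sets). SOX7, AFP and TTR did not pass, at 0.05, 0.35 and 0.50. The summed intensity was 9402 to 10995 at day 1 and 13117 to 31439 at day 5, and the part of such cells in the endoderm differences was not tested. CUBN, an uptake receptor of yolk sac and kidney, was higher by 1.07 ± 0.25 (adjusted p = 0.0317, lost in 6 of 7 fits, up to 0.167).

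Of 19 trophoblast markers GATA3, ENPEP and SLC40A1 were higher (2.00% of all probe sets were). At both days 15 stayed under the array median, and the median change was 0.08. SLC40A1, the iron exporter ferroportin, read 6.09, 5.63 and 6.09 at day 1 and 10.37, 11.46, 10.12 and 9.51 at day 5 (4.43 ± 0.89, adjusted p = 0.0172, lost without any day 1 sample, up to 0.0747). GATA3 rose by 2.29 ± 0.40 (0.00845, or 0.0594 with day 1 replicate 1 left out) and the peptidase ENPEP by 2.32 ± 0.36 (0.00498, in all 7 fits). The summed intensity went from 1209 to 1506 at day 1 to between 3233 and 5017 at day 5, and its part in these results was not tested.

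Of 21 neuroectoderm markers PAX6 and DLX5 were higher (2.00% of all probe sets were), with a median of 0.08. PAX6, a factor of eye, brain and pancreas, read 5.02, 4.48 and 5.45 at day 1 and 8.16, 9.90, 8.53 and 8.33 at day 5 (3.75 ± 0.47, adjusted p = 0.0016). DLX5, a homeobox factor of head ectoderm and bone, rose by 2.92 ± 0.40 (0.00218). Both held in all 7 fits, while SOX1, a marker of neural progenitors, differed by 0.14 and did not pass. Of 17 fibroblast markers LUM and TWIST1 were higher, none was lower and the median was 0.47. In all, 13 were above 0, and 4 had every day 5 sample above every day 1 sample (7.08% of all probe sets did). COL1A1 and COL3A1 differed by 0.13 and -0.20 without passing. The summed intensity of the fibroblast markers was 3196 to 5559 at day 1 and 5183 to 13659 at day 5, and its part in these results was not tested. ERBB3 was the sole call among 12 neural crest markers, as lower (-1.89 ± 0.44, adjusted p = 0.0325, lost after removal of day 1 replicate 1 or 3, or of day 5 replicate 1, up to 0.191). None of 18 endothelial and blood markers and none of 22 HOX genes passed with all samples. With 3.33% of all probe sets passing, lists this short hold few calls, so their absence says little about these genes. Without day 3 replicate 2, VWF, the adhesive protein of endothelium, passed as higher (1.59 ± 0.65, adjusted p = 0.262 with all samples and 0.0469 without it). In all, 21 of the HOX genes stayed under the array median at both days.

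Genes of DNA replication were lower at day 5. Of 31 measured 29 were below 0, 14 had every day 5 sample below every day 1 sample (9.06% of all probe sets did), 4 passed as lower and none as higher, and the median was -0.67. The list mean relative to day 1 was -0.58, -0.80, -0.65 and -0.79 in the day 5 samples. MCM4, a subunit of the replicative helicase, read 12.02, 11.69 and 11.92 at day 1 and 10.71, 9.73, 10.95 and 10.74 at day 5 (-1.35 ± 0.30, adjusted p = 0.0286). ORC1, a subunit of the origin recognition complex, fell by 1.33 on the log2 scale (SE 0.27, adjusted p = 0.018), and MCM10 and GINS3, which help to assemble the active helicase, by 0.98 and 0.96 (0.0351 and 0.0406). No day 5 sample reached a day 1 sample for any of these. The count of 4 fell to between 0 and 2 when 1 sample was left out, and to 0 without day 1 replicates 1 or 3. Of 32 mitosis genes 27 were below 0 with a median of -0.41, and none passed (3.33% of all probe sets did). CDC25A, a phosphatase that activates CDKs, was closest (-0.96 ± 0.26, adjusted p = 0.0633) and passed without day 3 replicate 2 (0.0440).

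CDKN1C, the CDK inhibitor p57, was the sole call among 20 G1 cyclins and CDK inhibitors. It read 8.62, 8.30 and 8.14 at day 1 and 10.41, 10.31, 11.29 and 10.41 at day 5, above day 1 in every sample (2.25 ± 0.37, adjusted p = 0.00566, in all 7 fits). TP53INP1, a p53 target that restrains the cell cycle, read 7.87, 9.02 and 8.15 against 10.67, 10.30, 10.54 and 10.49 and rose in all 7 fits (2.15 ± 0.29, adjusted p = 0.00218). Among 28 genes of apoptosis and p53 it was joined by GADD45A as higher (1.86 ± 0.46, 0.0469), while the cell death genes BID (-1.25 ± 0.31, 0.0425) and BCL2L11 (-1.16 ± 0.24, 0.0209) were lower. These other 3 calls were lost without at least 3 of the 7 samples.

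Part of the hypoxia response rose. Of 22 measured, ADM, BNIP3, MXI1, EGLN3 and P4HA2 were higher, none lower, 10 had every day 5 sample above every day 1 sample (7.08% of all probe sets did), and the median was 0.70. The peptide hormone ADM read 10.48, 9.97 and 9.87 at day 1 and 12.11, 11.13, 12.50 and 12.47 at day 5 (1.95 ± 0.34, adjusted p = 0.00806). MXI1, an antagonist of MYC, read 8.07, 7.94 and 7.95 against 9.59, 9.72, 9.75 and 9.34 (1.61 ± 0.27, 0.00616). Both held in all 7 fits, although ADM lost its call in a fit of the day 1 and day 5 groups alone (0.0511).

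BNIP3, a mitophagy receptor, rose by 1.88 ± 0.32 (adjusted p = 0.00757, or 0.0528 with day 1 replicate 1 left out), and the hydroxylases EGLN3 (1.18 ± 0.29, 0.0406) and P4HA2 (1.14 ± 0.24, 0.0197) were lost in 7 and 4 of the 7 fits. VEGFA did not pass (1.18 ± 0.36, 0.108) and did without day 3 replicate 2 (0.0322). The count of higher members was 2 without day 1 replicate 1 and 3 after removal of day 1 replicate 3, or of day 5 replicate 1 or 3. ADM and EGLN3 were below their day 0 means of 11.48 and 9.75 in every day 1 sample, and 3 and 4 of the day 5 samples, respectively, stood above those means. Glycolysis genes gave 1 call: of 25 measured ALDOC was lower (-1.12 ± 0.27, 0.0418, lost in 6 of 7 fits), none was higher and the median was -0.21. None of 17 cholesterol synthesis genes passed, which for so short a list is near the 3.33% of all probe sets. SQLE and TM7SF2 showed the largest differences there, at -0.60 ± 0.35 and 0.59 ± 0.38.

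Stress and immediate early genes gave single calls. ATF3, a stress-induced factor, read 8.28, 8.61 and 7.83 at day 1 and 10.04, 10.83, 10.13 and 9.66 at day 5 (1.93 ± 0.34, adjusted p = 0.00899, or 0.0539 with day 1 replicate 3 left out). KLF6, an early response factor, rose by 1.81 ± 0.34 (0.0123, lost without day 1 replicates 1 or 2, up to 0.0708). They were the calls among 24 immediate early genes, and ATF3 was the one among 27 genes of the amino acid and ER stress response.

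Pluripotency genes were lower with few calls. Of 25 measured, THY1, ZSCAN10 and NR5A2 passed as lower, none as higher, and the median was -0.66. The list mean relative to day 1 was -0.65, -1.15, -0.74 and -0.51 at day 5. THY1, a surface glycoprotein of undifferentiated cells, read 11.51, 11.44 and 11.09 at day 1 and 9.60, 9.60, 9.76 and 10.13 at day 5 (-1.57 ± 0.27, adjusted p = 0.00732, or 0.0528 with day 1 replicate 1 left out). ZSCAN10 (-1.38 ± 0.34, 0.0440) and NR5A2 (-1.33 ± 0.33, 0.0460) were lost in 5 and 6 of the 7 fits, and no member passed without day 1 replicate 1. Without day 3 replicate 2 the count was 6. DNMT3B, the DNA methyltransferase of stem cells, read 13.29, 12.24 and 13.26 against 11.31, 10.07, 12.30 and 12.24, with overlap (-1.45 ± 0.46, 0.126). PRDM14, which maintains pluripotency, differed by -1.36 ± 0.44 (0.131). The probe sets of POU5F1, NANOG and SOX2 carry several symbols, so their values are not given by gene.

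**Figure D3:**
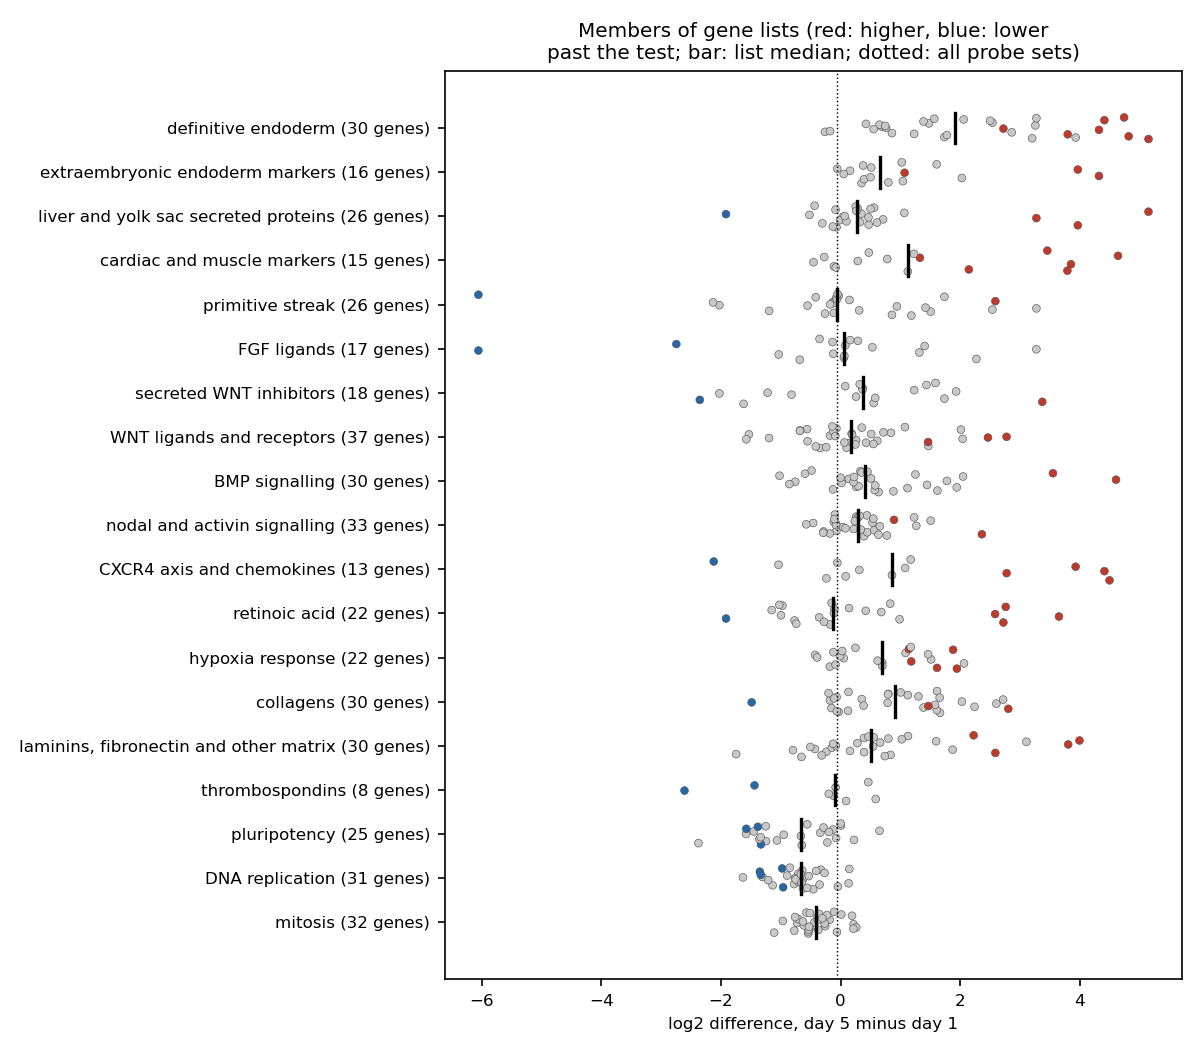
Log2 difference between day 5 and day 1 (horizontal axis) for the measured members of 19 gene lists, with 1 point per gene, a bar for each list's median and a dotted line for the median of all probe sets, -0.06. The definitive endoderm list has the highest median of the 19 at 1.92, and DNA replication lies at -0.67.

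Some guidance molecules rose. NTN4, a laminin-like netrin, read 2.25, 5.31 and 4.78 at day 1 and 8.37, 9.35, 8.96 and 8.74 at day 5. The gene rose by 4.74 ± 0.72 (adjusted p = 0.00384) in all 7 fits, although day 1 replicate 1 lay far below the other day 1 samples. UNC5C, a netrin receptor, read 4.96, 4.01 and 4.55 against 7.17, 5.67, 7.85 and 7.34 (2.50 ± 0.43, 0.00788). It held in all 7 fits and was lost in a fit of the day 1 and day 5 groups alone (0.0592). The co-receptor NRP1 (2.25 ± 0.47, 0.0193) and the semaphorin SEMA6D (3.14 ± 0.79, 0.0477) were the other calls among 41 axon guidance genes, with none lower and a median of 0.47. They were lost in 5 and 7 of the 7 fits. Without day 3 replicate 2 the list had 10 higher members and 1 lower.

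Among genes with a symbol the furthest rise belonged to GRP, the gastrin-releasing peptide, a neuropeptide also made in gut and lung. It read 2.25, 4.30 and 4.25 at day 1 and 9.57, 10.85, 8.42 and 9.56 at day 5, with a day 0 mean of 3.30. All 4 day 5 samples were high and the groups were over 4 log2 units apart (6.00 ± 0.78, adjusted p = 0.00176, or 63.9-fold, in all 7 fits). With a pseudocount of 16 the difference was 4.80, since the day 1 values lie at the bottom of the scale.

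CLTRN, also called collectrin, a partner of amino acid transporters, read 5.92, 5.75 and 6.63 at day 1 and 10.92, 12.00, 11.34 and 10.17 at day 5 (5.01 ± 0.50, adjusted p = 0.000747, or 32.2-fold). At day 3 it still read 7.08, 7.15 and 7.77, so like APOA1 it was high at day 5 and not before. TMEM100, a membrane protein of the BMP pathway in vessels, had the same pattern: it read 3.86, 5.63 and 4.25 at day 1, 4.59, 6.38 and 4.86 at day 3 and 9.30, 10.48, 8.94 and 8.58 at day 5 (4.74 ± 0.61, 0.00176). DIO3, which inactivates thyroid hormone, read 6.37, 5.44 and 7.25 against 10.86, 10.86, 11.88 and 11.82 (5.00 ± 0.78, 0.00498). ST8SIA4, a polysialic acid synthase, read 6.09, 5.22 and 7.66 against 10.83, 11.11, 11.08 and 10.76 (4.62 ± 0.75, 0.00566). These 4 genes held in all 7 fits and their groups did not overlap.

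Of the other large rises, the scavenger receptor gene COLEC12 read 5.94, 5.09 and 6.59 at day 1 and 11.42, 10.35, 12.40 and 12.11 at day 5 (5.70 ± 1.38, adjusted p = 0.0407). Its groups were nearly 4 log2 units apart, yet the call was lost without any of the 7 samples (0.0511 to 0.148) and the adjusted p was 5.82e-05 without day 3 replicate 2, which read 4.72 against 11.81 and 12.60. LINC00479, a non-coding RNA, rose by 4.93 ± 1.07 (0.0246, lost in 5 of 7 fits, up to 0.128). S100Z, a calcium-binding protein, read 1.67, 2.51 and 3.13 at day 1 and 6.26, 9.61, 5.84 and 6.27 at day 5 (4.56 ± 0.95, 0.0196), and its call was lost without any day 1 sample (up to 0.115). With a pseudocount of 16 its difference was 2.84.

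After FGF4 the furthest fall was that of SPIB, an ETS factor best known from lymphocytes. It read 7.95, 7.85 and 7.68 at day 1 and 4.49, 4.26, 4.23 and 3.12 at day 5 (-3.80 ± 0.53, adjusted p = 0.00231, or 13.9-fold), against a day 0 mean of 6.13. The call was lost when all 16 arrays entered with the sample as a random block (0.0517). EBF2, a factor of the early B-cell factor family, read 9.51, 8.59 and 8.92 at day 1 and 4.85, 5.47, 6.41 and 6.37 at day 5 (-3.23 ± 0.51, 0.00498), against a day 0 mean of 5.80. Both genes stood above the day 0 mean in every day 1 sample, and at day 3 they were already down, at 5.43, 6.58 and 5.20 for SPIB and 5.88, 3.85 and 5.46 for EBF2. With FGF4 and THBS2 they share a level that was higher at day 1 than in the day 0 mean and lower at day 5 than at day 1.

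Another 4 falls began from levels at day 1 that were closer to those of day 0. GLB1L3, a galactosidase-like gene, had a day 0 mean of 8.94 and read 9.45, 9.32 and 9.44 at day 1 and 6.65, 5.89, 6.83 and 7.09 at day 5 (-2.79 ± 0.36, adjusted p = 0.00176). CAMKV (day 0 mean 9.02) fell by 2.62, RIMS4 (7.93) by 2.51 and the calcium pump ATP2A3 (8.28) by 2.51, with adjusted p of 0.00623, 0.00498 and 0.0021. These 4 held in all 7 fits. Apart from these, HEY1, a Notch target, fell by 2.69 (0.0172), SALL3 by 2.61 (0.0143) and the fructose kinase KHK by 2.54 (0.0132). These last 3 had day 0 means of 6.10, 7.96 and 6.09 and higher day 1 means of 7.63, 8.56 and 6.76. Their calls were lost without day 1 replicate 1, and those of HEY1 and KHK also without day 1 replicate 2 and that of SALL3 without day 1 replicate 3 (up to 0.0747, 0.0688 and 0.0898). PPP2R2B, a phosphatase subunit, fell by 2.45 (0.0269), and RHOH by 2.39 (0.0224), each lost in 5 of the 7 fits. Their day 0 means were 9.67 and 7.74, against day 1 means of 9.93 and 8.71.

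**Figure D4:**
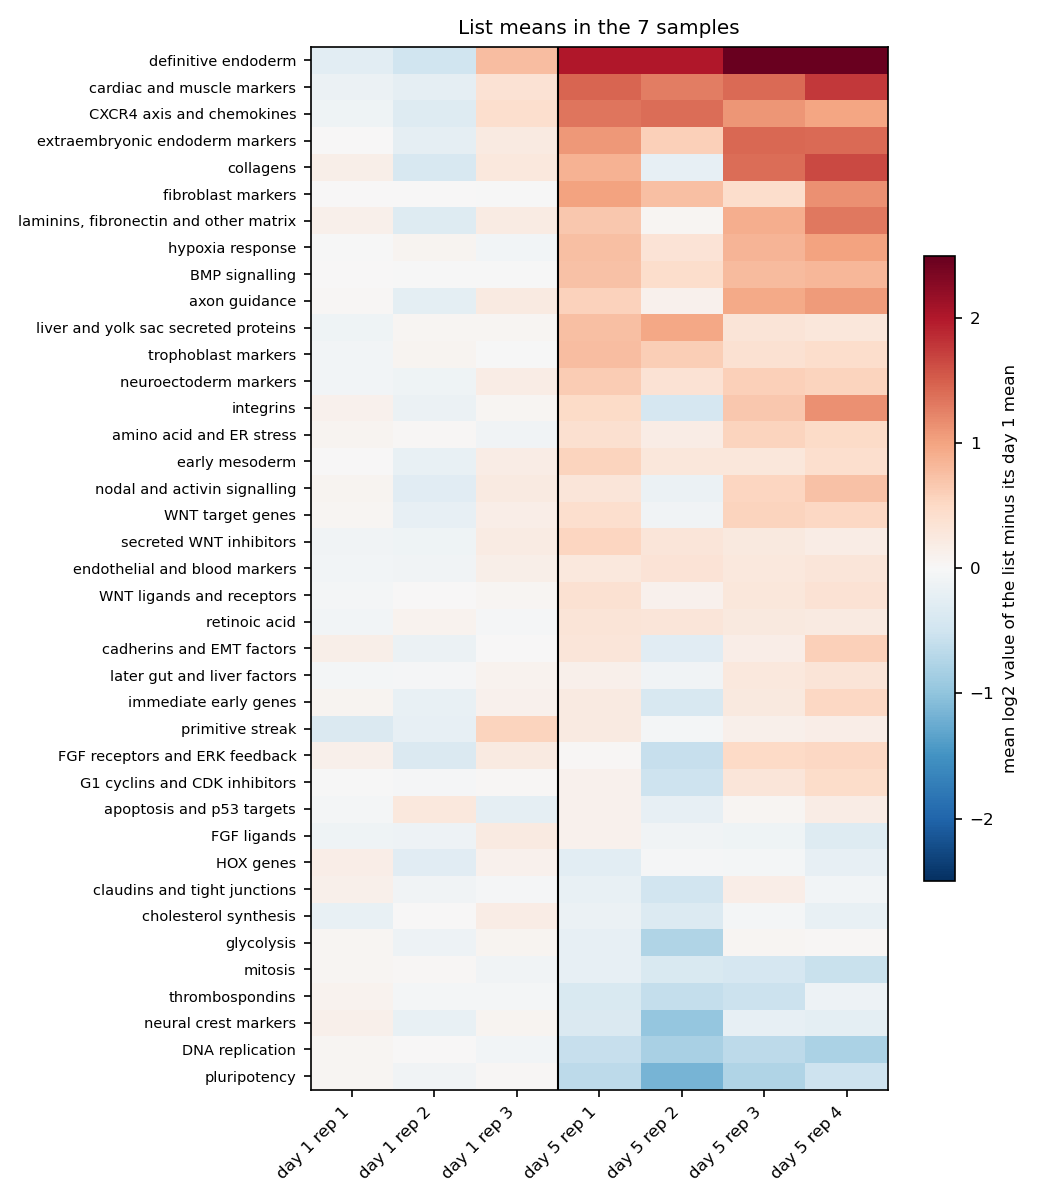
Mean log2 level of each of 39 gene lists in each day 1 and day 5 sample, minus the list's mean over the day 1 samples, on a colour scale of ±2.5. The definitive endoderm row is highest in the day 5 columns, and the day 5 replicate 2 column is the lowest of its group in 27 of 39 lists.

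The same samples stood low or high in many of the lists. Day 5 replicate 2 had the lowest mean of its group in 27 of the 39 lists and day 5 replicate 4 the highest in 17. At day 1, replicate 2 was lowest in 24 and replicate 3 highest in 22. In definitive endoderm genes, however, day 5 replicates 1 and 2 were level at 1.99 and 2.00, and in CXCR4, MYL7, APOA1 and GRP replicate 2 stood among the other day 5 samples or above them. Over the 138 genes named by rule or for their role, 104 passed the test and 36 of these did so in all 7 fits. Many were named because they had passed, so this share follows from the choice. Over all 18495 probe sets 616 passed, and 152 of these did so in all 7 fits. Of the 34 named genes that did not pass, 13 passed without day 3 replicate 2. Leaving that sample out also raised the counts of several lists: the higher FGF ligands from 0 to 2, the lower FGF receptor and feedback genes from 2 to 4, the higher Nodal and activin genes from 2 to 4 and the higher collagens from 2 to 4. The secreted WNT inhibitors then had 2 higher and 2 lower members.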

How the data were processed

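The deposited table, made by the authors, holds 1 intensity per probe set and array on a linear scale, from -0.272727 to 30307.1. The build is hg18 per the submitters' processing notes, and the normalization tool is not given in the sources used here. A pseudocount of 1 was added and log2 taken, technical arrays were averaged, and limma 3.58.1 (R 4.3.3) fitted the 4 time groups over all 14 biological samples, with eBayes and Benjamini-Hochberg adjustment over 18495 probe sets at 0.05. Gene symbols came from the platform annotation, 14550 of them updated through Entrez. Of the probe sets 14577 carried 1 symbol, 2849 several and 1069 none, and only the first kind was named, by the probe set with the highest mean.

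The genes named were 3 markers, those of the 15 largest rises and the 15 largest falls among called probe sets with separate groups, and, per list, the 3 (at most) called members that moved furthest, or 2 where no member was called. Another 39 list members, the well-known endoderm, streak and pathway genes such as SOX17, EOMES, NODAL and CXCL12, were chosen after their values were seen. The members and all 39 lists (970 genes, 808 measured) were chosen with earlier results of these data known. Lists are described by counts and medians, with no test. Tested on simulated data with the spread of these samples, the fit called 74% of 100 probe sets changed by 2 (log2) and 98% of 100 changed by 4, with 14 unchanged probe sets called. The changed probe sets were drawn from those with a mean above the median, and the noise was normal and independent. Dimmer probe sets and deviations shared by many genes of a sample were thus not covered. Figures used Python 3.11.15 with matplotlib 3.10.9. Alternatives are given in the closing section.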

Additional observations from a re-analysis of the deposited data

Results flagged for a closer look

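In 4 of the 138 genes looked at, 1 of the 4 day 5 samples stood far from the others: its gap to the nearest sample, as a share of the whole range of the group, passed Dixon's limit for 4 values. Chance alone passes that limit in about 1 of 20 groups. S100Z had a share of 0.885, with replicate 2 at 9.61 above a nearest value of 6.27. CDKN1C had a share of 0.897, with replicate 3 at 11.29 above 10.41. SQLE had a share of 0.875, with replicate 2 at 9.67 below 10.91. MATN3 had a share of 0.832, with replicate 4 at 10.04 below 10.38. The range of MATN3 was 0.41 log2 units, so its gap is small in size.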

How the results depend on the processing

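None of the 104 named genes past the test changed direction under any alternative run. The number of calls changed most with array weights and with the samples included. Against 616 calls (370 higher, 246 lower), a fit of the day 1 and day 5 groups alone gave 398 (289 and 109), of which 327 were shared. Leaving out the day 3 group gave 949 (572 and 377), and leaving out day 3 replicate 2 alone gave 1130 (654 and 476), among them all 616. Leaving out day 3 replicate 2 and day 5 replicate 2 together, an alternative chosen after seeing the data, gave 1503 (897 and 606). Array weights gave 3833 (1874 and 1959), so that 48.9% of the calls were higher in place of 60.1%. An adjusted p under 0.01 left 185 (128 and 57). Leaving out 1 day 1 or day 5 sample gave 170 to 527 calls, 117 to 335 higher and 53 to 192 lower. A random sample block, technical arrays used singly, quantile or median scaling, a variance trend, removal of the dimmest 25% of probe sets, a pseudocount of 16 and 1 probe set per symbol gave 524 to 732.

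Samples with number 2 or 3 deviated together (r = 0.51 and 0.43) and those with number 1 did not (r = -0.15). Differently numbered pairs ran from -0.52 (day 1 replicate 2, day 5 replicate 3) to 0.40 (day 1 replicate 3, day 5 replicate 4). The numbers are therefore not taken as pairs. With the replicate number as a block 741 probe sets passed (418 higher, 323 lower), 547 of them shared. Of the 104 named genes past the test, 5 lost the call under that block, 5 with a random sample block (SPIB, KHK, RHOH, MCM10 and RBP4, at 0.0517 to 0.135) and 32 in the fit of only 2 groups. At an unadjusted p under 0.05, 2684 probe sets passed. The 4 and 3 samples of the groups limit the precision.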
